A study of Mus musculus with 6 samples.

Results

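The Kruppel-like factors are zinc finger transcription factors, and 10 of their genes were followed here in mouse aorta: Klf2, Klf3, Klf4, Klf5, Klf6, Klf7, Klf9, Klf10, Klf13 and Klf15. The members are all probe sets whose gene symbol in the platform annotation is one of these 10 names, which gave 34 of the 45101 probe sets of the array and 10 of the 18193 genes it names. Total RNA came from whole aortas of 32-week-old mice, 3 arrays from apoE-/- mice on the C57BL/6J background and 3 from C57BL/6J wild type mice. Mice without apolipoprotein E carry high plasma cholesterol and form atherosclerotic plaques. The labels do not say whether a replicate was a single animal, a pool or a repeat preparation, nor how the apoE allele was disrupted, so the p-values reflect how much these arrays vary and no more, and that variation may be technical.

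All members of the family share a C-terminal block of zinc fingers that binds CACCC and GC-rich boxes, and they differ in the part of the protein that recruits co-activators or co-repressors. In the vessel wall KLF2 and KLF4 are known as endothelial factors induced by laminar flow, KLF4 and KLF5 as factors that take smooth muscle cells away from the contractile state, and KLF6 and KLF10 as early response genes linked to injury and TGF-beta. KLF9 and KLF15 are induced by glucocorticoids and follow the circadian clock, and KLF15 also controls amino acid and glucose use in muscle, heart, liver and fat.

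None of the 10 genes passed the test in either direction. Klf15 had the largest difference, with a mean intensity in apoE-/- aorta 0.575 times that in wild type aorta, and it stood just outside the threshold (adjusted p = 0.0514). Klf9 came next, at 0.716 times the wild type mean (adjusted p = 0.0997). The flow-induced and smooth muscle members Klf2, Klf4 and Klf5, and the early response members Klf6 and Klf10, had intervals that included no change. Each adjusted p for a gene is from limma, fitted to log2(intensity + 16) of 13031 genes with Benjamini-Hochberg adjustment over all of them, a gene being called at an adjusted p under 0.05 and represented by its brightest probe set. By that rule 3.15% of all genes were called higher and 0.483% lower in apoE-/- aorta (3.63% in either direction). At an unadjusted p under 0.05, 2 of the 10 passed, Klf9 and Klf15, both lower in apoE-/-, and over all genes 9.56% were higher and 8.81% lower at that level (18.4% in all).

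The arrays were comparable in scale, with median intensities from 178 to 195.5 units. Apoe itself, read as a check of the labels, was at 56.3 to 462.1 units on the apoE-/- arrays and at 4309.1 to 5685.6 units on the wild type arrays (log2 change -4.65 ± 0.56, SE, limma adjusted p = 0.00368). Of 14 macrophage markers 13 rose in apoE-/- aorta, with summed intensities of 55731 to 82696 units against 19924 to 22174 units in wild type. Smooth muscle markers, which define the tissue, were at 78124 to 92987 units in sum in apoE-/- aorta and at 89062 to 100773.7 units in wild type, and 0 of 12 were called. Of 7 skeletal muscle markers 2 fell, Casq1 and Ckm, and their sum was 1596.3 to 1889.4 units in apoE-/- aorta against 3156.8, 2958.9 and 18873.9 units on wild type replicates 1, 2 and 3. In bulk tissue, fewer cells of a type and less RNA per cell cannot be told apart.

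**Figure D1:**
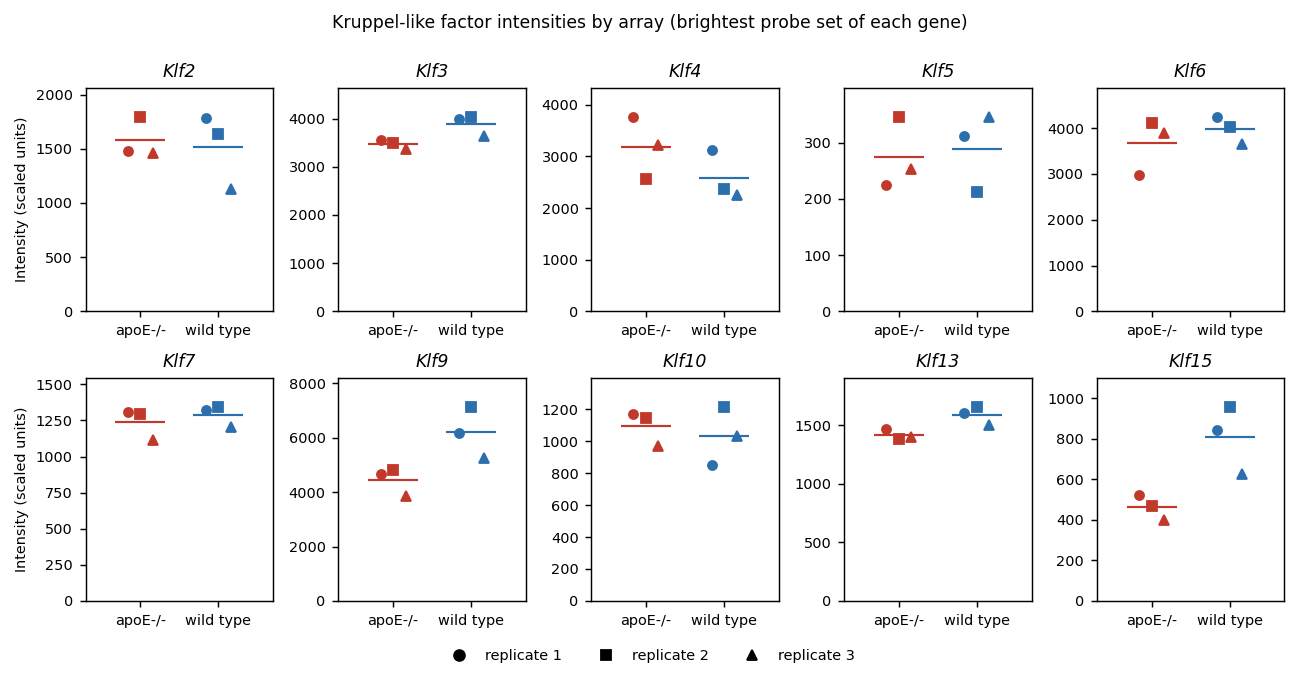
Intensity of each Kruppel-like factor gene (its brightest probe set, scaled units, linear axes from 0) on the 3 apoE-/- arrays (red, left) and the 3 wild type arrays (blue, right), with the group mean as a line and the replicate as the marker shape. Klf15 lies between 399.8 and 524.1 units on the apoE-/- arrays and between 627 and 956.6 units on the wild type arrays, while Klf2, Klf4, Klf5, Klf6, Klf7 and Klf10 overlap between genotypes.

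KLF9 and KLF15 are the members that respond to glucocorticoids. Klf15 read 524.1, 470.1 and 399.8 units on the apoE-/- arrays, against 840.6, 956.6 and 627 units on the wild type arrays. The groups did not overlap, and wild type replicate 3 was the wild type array nearest to apoE-/-. The means were 465 ± 62.3 units in apoE-/- and 808 ± 167 units in wild type (SD, n = 3 each), which is a log2 change of -0.76 ± 0.17 (SE) with a limma adjusted p of 0.0514. The 95% interval of that change ran from 0.447-fold to 0.774-fold. Without wild type replicate 3 the log2 change was -0.93 and passed (adjusted p = 0.0343), whereas without any one of the other 5 arrays it lay between -0.85 and -0.64 and did not pass (adjusted p from 0.0748 to 0.187).

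Klf9, which can repress or activate genes through GC boxes, read 4649.7, 4796 and 3873.2 units in apoE-/- and 6186.7, 7134.5 and 5269 units in wild type. The groups did not overlap at this probe set, its log2 change was -0.47 ± 0.13 (SE, limma adjusted p = 0.0997), and the 95% interval ran from 0.585-fold to 0.884-fold. Klf9 has 7 probe sets, of which 6 passed the filter on dim signal. All 7 had negative log2 changes, and those of the 6 kept probe sets lay between -0.47 and -0.18. The groups overlapped at the other 5 kept probe sets, and the lowest adjusted p of the 6, over all 27022 kept probe sets, was 0.112. With the gene read as the median of its probe sets, the log2 change of Klf9 was -0.26 (limma adjusted p = 0.605).

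Klf3 and Klf13, which recruit the co-repressors CtBP and Sin3, also had their 3 apoE-/- values below the 3 wild type values at the brightest probe set. Klf3 read 3546.4, 3493.7 and 3369 units in apoE-/- and 3991.1, 4028.3 and 3638.3 units in wild type, which gave a log2 change of -0.16 ± 0.08 (SE) with a limma adjusted p of 0.344. Klf13 read 1470.9, 1385.4 and 1404.3 units in apoE-/- and 1605.3, 1658.2 and 1502.9 units in wild type, a log2 change of -0.16 ± 0.09 (limma adjusted p = 0.377). The fitted folds were 0.894 and 0.895, and the 95% intervals (0.785-fold to 1.02-fold for Klf3, 0.78-fold to 1.03-fold for Klf13) include no change. In all, 4 of the 10 genes had groups that did not overlap with apoE-/- lower, and 0 had them with apoE-/- higher. Over all genes tested 13.8% had such groups with apoE-/- lower and 10.9% with apoE-/- higher (24.6% in all). Klf13 is on chromosome 7, as is Apoe; the other 9 members are on other chromosomes.

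The 4 genes also ordered the wild type arrays alike: replicate 2 was highest, replicate 1 next and replicate 3 lowest in Klf3, Klf9, Klf13 and Klf15, as also in Klf7, whose groups overlapped, and for Klf3 and Klf15 the whole order of the 6 arrays was the same. The beta-actin control, whose signal at the 3′ end over that at the 5′ end is a sign of RNA quality, followed that order too (with one tie), at 1.155, 1.151 and 1.151 on apoE-/- replicates 1, 2 and 3 and at 1.205, 1.209 and 1.164 on wild type replicates 1, 2 and 3. The same ratio for Gapdh overlapped between genotypes, at 0.705 to 0.816 in apoE-/- and 0.736 to 0.775 in wild type. The part of RNA quality in the lower Klf values was not tested.

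The promoters of these 4 genes are printed because these were the members whose groups did not overlap at the brightest probe set. Each line gives the 250 bases before the gene's start from RefSeq, 5′ to 3′ on the gene's strand (GRCm38.p6), and the capitals mark CACCC and GGGCGG, the CACCC and GC boxes that the family binds, on either strand (so CACCC also appears as GGGTG and GGGCGG as CCGCCC).
Klf3 (chr5:64803271-64803520, plus strand): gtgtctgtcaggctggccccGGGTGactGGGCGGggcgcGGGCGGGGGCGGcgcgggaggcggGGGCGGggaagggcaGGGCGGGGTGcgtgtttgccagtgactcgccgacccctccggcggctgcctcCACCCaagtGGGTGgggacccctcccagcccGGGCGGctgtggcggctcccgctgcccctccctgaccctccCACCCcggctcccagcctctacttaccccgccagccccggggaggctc
Klf9 (chr19:23140976-23141225, plus strand): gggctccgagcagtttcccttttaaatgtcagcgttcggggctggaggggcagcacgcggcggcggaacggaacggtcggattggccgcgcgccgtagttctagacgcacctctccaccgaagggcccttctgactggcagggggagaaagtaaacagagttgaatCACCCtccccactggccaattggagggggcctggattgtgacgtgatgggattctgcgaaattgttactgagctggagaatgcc
Klf13 (chr7:63938916-63939165, minus strand): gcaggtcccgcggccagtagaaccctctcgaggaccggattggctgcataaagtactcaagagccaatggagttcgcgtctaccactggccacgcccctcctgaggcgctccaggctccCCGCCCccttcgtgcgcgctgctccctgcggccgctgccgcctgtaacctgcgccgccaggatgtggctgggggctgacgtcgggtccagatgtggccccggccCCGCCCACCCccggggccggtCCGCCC
Klf15 (chr6:90462326-90462575, plus strand): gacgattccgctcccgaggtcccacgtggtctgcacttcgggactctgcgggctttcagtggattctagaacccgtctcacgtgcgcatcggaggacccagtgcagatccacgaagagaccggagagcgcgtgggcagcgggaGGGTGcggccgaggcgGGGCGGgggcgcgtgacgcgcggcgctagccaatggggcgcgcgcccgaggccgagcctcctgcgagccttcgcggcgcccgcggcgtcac

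RefSeq promoters were matched for 8 of the 10 members; Klf5 and Klf10 were not matched. The Klf3 promoter held 5 CACCC and 6 GGGCGG boxes, that of Klf13 held 1 CACCC and 3 GGGCGG, and that of Klf15 held 1 of each, while that of Klf9 held 1 CACCC and no GGGCGG. Some boxes overlap, as the CCGCCC and CACCC of Klf13 do. Among the 8 promoters 6 held CACCC and 7 held GGGCGG, boxes that are also common in general, in 52% and 32.7% of 32851 mouse promoters of the same length. The CREB site TGACGTCA and the CArG box, which SRF binds, were searched on both strands and stood in none of the 8 windows, where 1.55% and 1.47% of all promoters held them. A single fixed form of the MEF2 site and the palindromic glucocorticoid response element were likewise in none of the 8 and in 0.14% and 0.009% of all promoters. Other forms of the MEF2, glucocorticoid and CREB sites were not searched, so the 8 windows may hold them. The Klf2 window, not printed here, holds ctaaatttag. That stretch has the ends of the searched MEF2 form with other A and T bases between them, and it was not counted.

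Klf2 and Klf4, the flow-induced members, were not called. Klf2 read 1476.7, 1790.9 and 1461.8 units in apoE-/- and 1786.6, 1632.5 and 1127.9 units in wild type. The highest value came from an apoE-/- array and the lowest from a wild type array, with the others interleaved. Its log2 change was 0.08 ± 0.17 (SE, limma adjusted p = 0.852), with an interval from 0.805-fold to 1.38-fold. Klf4 read 3761.4, 2572.3 and 3221.2 units in apoE-/- and 3134.4, 2373 and 2247.4 units in wild type. The highest pair of Klf4 values came from apoE-/- arrays and the lowest pair from wild type arrays, but the groups overlapped. Its log2 change was 0.30 ± 0.17 (limma adjusted p = 0.384, interval 0.947-fold to 1.60-fold), and the second Klf4 probe set gave 0.19 ± 0.16. Without apoE-/- replicate 1 the Klf4 log2 change was 0.17 (limma adjusted p = 0.673). A Klf4 rise above 1.60-fold in these aortas, averaged over all cells, lies outside that interval.

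The remaining members lay close to equal. Klf5, which drives smooth muscle growth after injury, read 224.5 to 345.2 units in apoE-/- and 211.7 to 345.2 units in wild type, a log2 change of -0.07 ± 0.23 with an interval from 0.668-fold to 1.36-fold. Klf6, an injury-induced activator of TGF-beta pathway genes, read 2985.8 to 4110.4 units in apoE-/- and 3651.4 to 4237.1 units in wild type (log2 change -0.13 ± 0.13). Klf7, best known from neurons and adipocytes, read 1115.9 to 1309.7 units in apoE-/- and 1202 to 1344 units in wild type (log2 change -0.06 ± 0.10). Klf10, the TGF-beta-inducible early gene, read 967.3 to 1167.3 units in apoE-/- and 851.5 to 1214.2 units in wild type (log2 change 0.09 ± 0.14). Their limma adjusted p-values lay between 0.65 for Klf6 and 0.905 for Klf5, and all 4 intervals included no change.

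**Figure D2:**
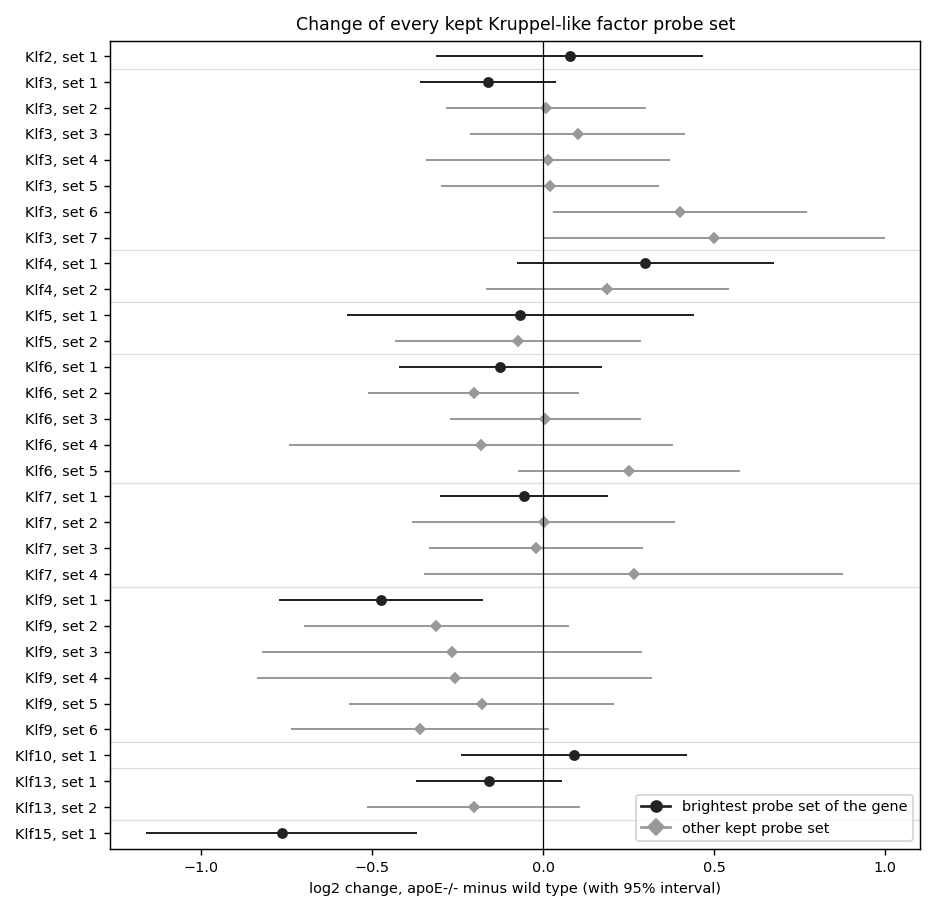
Log2 change of each of the 31 kept member probe sets (apoE-/- minus wild type, log2(intensity + 16) scale), with the 95% interval from limma as a line, numbered within a gene from the brightest probe set down. The 6 kept Klf9 probe sets all lie left of 0, whereas Klf3 has its brightest probe set at -0.16 and its dimmest at 0.50.

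Probe sets of one gene did not always point the same way. Of the 34 member probe sets 31 passed the filter, 1 of Klf5, 1 of Klf9 and 1 of Klf13 being under it. None of the 31 was called when each probe set was tested on its own, where 2.44% of all kept probe sets were called higher and 0.281% lower (2.72% in all). At an unadjusted p under 0.05 there were 4, which were 1 each of Klf9 and Klf15, lower in apoE-/-, and 2 of Klf3, higher in apoE-/-. Of all kept probe sets 8.74% were higher and 7.5% lower at that level (16.2% in all), so the members' count of 4 of 31 was not above that share. The second dimmest Klf3 probe set read 317.3, 342.7 and 272.6 units in apoE-/- and 212.8, 217 and 266.1 units in wild type, a log2 change of 0.40 ± 0.16 (limma adjusted p = 0.27). The dimmest Klf3 probe set, with 179.5, 147.4 and 139.7 units in apoE-/- against 120.7, 80.3 and 118 units in wild type, gave 0.50 ± 0.22 (limma adjusted p = 0.305). At both, all apoE-/- values lay above all wild type values, the opposite of the brightest Klf3 probe set, and the other 4 Klf3 probe sets lay between 0.01 and 0.10. Groups that did not overlap were seen at 2 of the 31 probe sets with apoE-/- higher and at 4 with apoE-/- lower, beside 10.5% and 12.2% of all kept probe sets (22.7% in all). Thus 6 of the 7 Klf3 probe sets were positive, and the direction of Klf3 depends on which is read. Klf6 had 2 positive and 3 negative probe sets, from -0.20 to 0.25, and Klf7 had 2 of each sign, from -0.06 to 0.26. Klf4, Klf5, Klf9 and Klf13 had all kept probe sets on one side of 0.

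Genes known to respond to glucocorticoids, as Klf9 and Klf15 do, did not move in one direction. Of 18 tested, 1 rose and 1 fell, and the median log2 change was -0.11, beside -0.05 over all genes. The one that fell was Zbtb16, a zinc finger repressor, at 1367.4, 1338 and 1197.2 units in apoE-/- against 2335.8, 5230.9 and 3000.3 units in wild type (log2 change -1.34 ± 0.25, SE, limma adjusted p = 0.0235). It was not called without apoE-/- replicate 1, apoE-/- replicate 3 or wild type replicate 3 (adjusted p = 0.094, 0.101 and 0.0632). Over single arrays left out, 1 to 2 of the 18 were called higher and 0 to 2 lower. Lcn2, an iron-scavenging secreted protein also made by myeloid cells, rose (log2 change 4.87 ± 0.35, limma adjusted p = 4.68e-04). It read 6483.4, 2102.5 and 3092.5 units in apoE-/- against 82.4, 123.5 and 107.7 units in wild type. These wild type values lie close to the level of the filter on dim signal. None of 9 genes of amino acid and glucose use linked to KLF15 was called, with Slc2a4, the insulin-responsive glucose transporter, at the smallest p (log2 change -0.51 ± 0.29, limma adjusted p = 0.388).

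The circadian clock drives Klf9, Klf10 and Klf15 in many tissues, and several of its genes spread widely among the wild type arrays. None of 16 clock genes was called (1 was, as higher, without wild type replicate 2), and their median log2 change was -0.20. Per2 had the smallest p (log2 change -0.69 ± 0.27, SE, limma adjusted p = 0.227). Wild type replicate 2 was the highest of the 6 arrays for 9 of these 16 genes and the lowest for 5. Wild type replicate 3 was highest for 4 and lowest for 4, and apoE-/- replicate 3 was highest for 0 and lowest for 6. Dbp, a clock output factor, read 2294.7, 1406.7 and 1088.5 units in apoE-/- and 1822.5, 4669.9 and 916.1 units in wild type. Npas2, a partner of the opposite clock phase, read 530.4, 866.4 and 538 units in apoE-/- and 910.9, 293.1 and 1009.8 units in wild type. Dbp and Npas2 were named after their values were seen. Wild type replicate 2 was highest for 7 of 9 adipocyte markers, which summed to 48176, 36543.6 and 36081.4 units in apoE-/- and 39004.6, 62797.7 and 44570.2 units in wild type. None of the 9 was called, 0 had a positive log2 change, and their median was -0.43, beside -0.05 over all genes. Wild type replicate 2 was also highest for Klf15, Klf9 and Zbtb16. Without it the log2 changes were -0.64 for Klf15 and -0.37 for Klf9 (limma adjusted p = 0.127 and 0.203), and Zbtb16 stayed called (adjusted p = 0.00772).

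Skeletal muscle markers were also lower on every apoE-/- array, as a sum, than on any wild type array. Read singly, Tnni2 and Actn3 overlapped between genotypes, while Acta1, Ckm, Casq1, Pvalb and Mylpf did not. Over all genes 13.8% had groups without overlap and apoE-/- lower. Casq1, the calsequestrin of fast muscle, read 993.6, 1007.1 and 862.5 units in apoE-/- and 1934.2, 1699.3 and 2564.1 units in wild type (log2 change -1.08 ± 0.15, SE, limma adjusted p = 0.00686), and it stayed called without any single array. Ckm, muscle creatine kinase, read 267.3, 286 and 256.2 units in apoE-/- and 432.2, 467.7 and 454.6 units in wild type (log2 change -0.71 ± 0.13, limma adjusted p = 0.0218). Ckm was called, beside the full set, only without apoE-/- replicate 2 (adjusted p from 0.0676 to 0.0862 without any one of the others). Wild type replicate 3, highest for 6 of the 7 markers, was the lowest wild type array for Klf15 and Klf9, and wild type replicate 2 was highest for Ckm as for both of them. The part of clock phase, fat or skeletal muscle in the values of Klf15 and Klf9 was not tested.

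**Figure D3:**
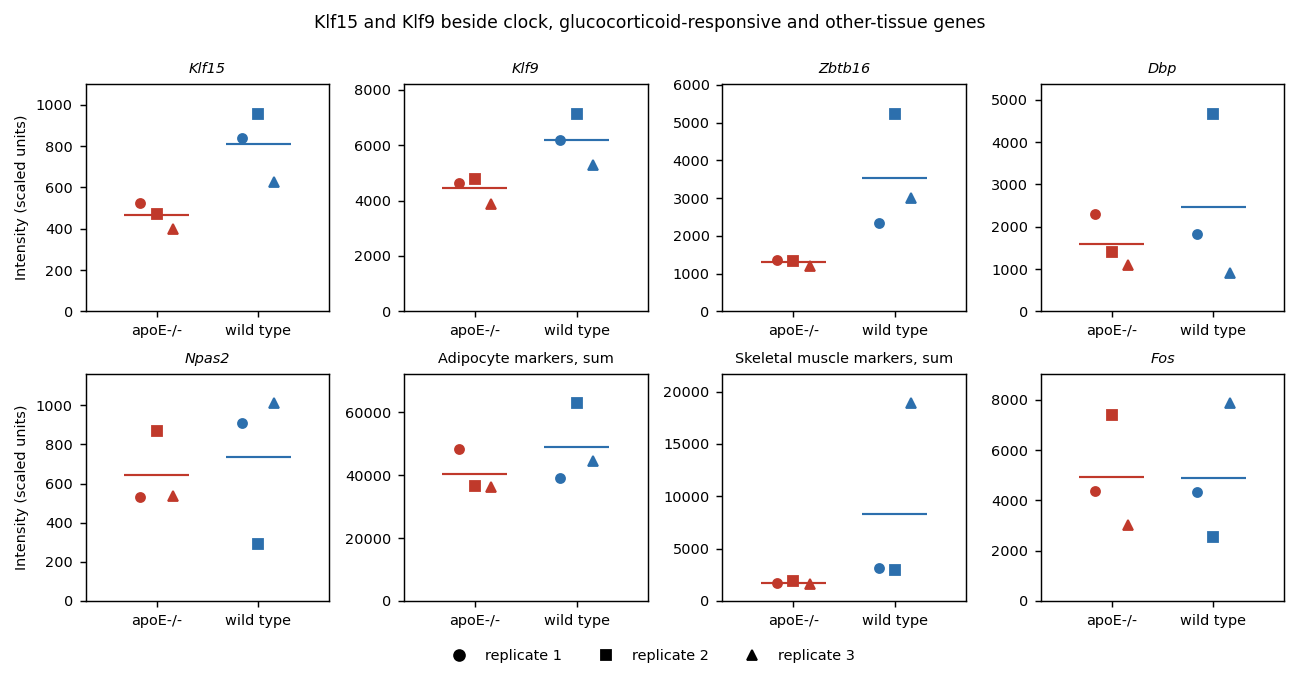
Intensity (scaled units, linear axes from 0) of Klf15, Klf9, Zbtb16, Dbp, Npas2 and Fos and the summed intensity of the adipocyte and skeletal muscle marker lists, on the 3 apoE-/- arrays (red, left) and the 3 wild type arrays (blue, right), with group means as lines. Wild type replicate 2 (blue square) is highest for Klf15, Klf9, Zbtb16, Dbp and the adipocyte sum and lowest for Npas2, and the skeletal muscle sum is 1596.3 to 1889.4 units on the apoE-/- arrays against 2958.9 to 18873.9 units on the wild type arrays, highest on wild type replicate 3 (blue triangle).

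Endothelial genes under KLF2 and KLF4 were mostly not called. Of 15 tested 2 rose, and the median log2 change was 0.20. Vcam1, the leukocyte adhesion molecule that KLF2 represses, read 8889.7, 5766.5 and 6811.6 units in apoE-/- and 2354.2, 2161.4 and 1868.9 units in wild type (log2 change 1.73 ± 0.16, SE, limma adjusted p = 0.00111). Edn1, the vasoconstrictor endothelin 1, also repressed by KLF2, had a log2 change of 0.78 ± 0.17 (adjusted p = 0.0446) and was called only with all arrays or without apoE-/- replicate 2; without any one of the other 5 its adjusted p lay between 0.0939 and 0.132. Nos3 and Thbd, which KLF2 activates, were named after their values were seen: endothelial nitric oxide synthase had a log2 change of 0.22 (adjusted p = 0.439) and thrombomodulin of -0.04 (adjusted p = 0.887). Among 12 endothelial markers 1 rose, Emcn, which was not called without apoE-/- replicate 1 or 3 or wild type replicate 1 or 3 (adjusted p from 0.108 to 0.158), and their sum was 16411 to 19540.1 units in apoE-/- against 12974 to 17387 units in wild type. Upstream of KLF2 and KLF4, none of 15 genes of the MEK5, ERK5 and MEF2 pathway was called. Mef2c had the smallest p there, with 2511.2 to 2869.9 units in apoE-/- and 3319.2 to 3612 units in wild type (log2 change -0.34 ± 0.09, adjusted p = 0.0791), and 1 gene of the pathway was called lower without apoE-/- replicate 2.

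Contractile smooth muscle genes, which KLF4 represses, gave no called member among 15. All 15 had negative log2 changes, with a median of -0.16 beside -0.05 over all genes, of which 5356 of 13031 were positive. The 12 smooth muscle markers given above are all among these 15 genes, so the lists are not separate readings. The part of smooth muscle content in these values was not tested. Smtn (smoothelin) had the smallest p, with 5802.8, 6355.9 and 5440.9 units in apoE-/- and 7280, 7348.7 and 7453 units in wild type (log2 change -0.33 ± 0.09, SE, limma adjusted p = 0.0858), and 1 gene of the list was called lower without apoE-/- replicate 2. Of 11 genes linked to KLF5, 2 rose: the monocyte attractant Ccl2 (2.62 ± 0.46) and cyclin D1, Ccnd1 (0.59 ± 0.12), with adjusted p = 0.0194 and 0.0373. Ccl2 read 552.9, 240.6 and 567.8 units in apoE-/- against 20.3, 85.9 and 83.9 units in wild type. Such wild type levels are like those of probe sets left out as dim, so Ccl2 passed the filter through its apoE-/- values. Ccl2 was not called without apoE-/- replicate 1 or 3 (adjusted p = 0.101 and 0.0909), and Ccnd1 was called, beside the full set, only without apoE-/- replicate 2 (0.0798 to 0.134 without any one of the others). Of 8 genes of alternative macrophage activation linked to KLF4, 2 rose, the interleukin 4 receptor chain Il4ra (1.18 ± 0.22) and the mannose receptor Mrc1 (0.70 ± 0.13), with adjusted p = 0.0259 and 0.0224. Neither was called without apoE-/- replicate 1 (0.12 and 0.103), apoE-/- replicate 3 (0.113 and 0.0913), wild type replicate 1 (0.0826 and 0.0624) or wild type replicate 3 (0.0748 and 0.0643), nor Mrc1 without wild type replicate 2 (0.0598). Mrc1 is also one of the macrophage markers, whose rise stands beside these counts; its part in them was not tested.

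Early response and TGF-beta genes, the setting of Klf6 and Klf10, held few calls. None of 23 immediate early genes was called (median log2 change 0.10), and Egr3, an early growth response factor, had the smallest p (log2 change 0.70 ± 0.22, SE, limma adjusted p = 0.15). Fos, the most studied of them and named after its values were seen, spread widely within each genotype, at 4371.1, 7400.8 and 3026.2 units in apoE-/- and 4323.8, 2537.1 and 7859.3 units in wild type. Wild type replicate 3, highest for Fos, was lowest for Klf2 and Klf4, which are early response genes themselves. Without apoE-/- replicate 2, 1 immediate early gene was called higher and 1 lower. Of 15 TGF-beta and SMAD genes 1 rose, the ligand Tgfb1, with 1527.6, 1090 and 1322 units in apoE-/- against 611.8, 527.1 and 494.9 units in wild type (log2 change 1.24 ± 0.14, adjusted p = 0.00336). Without apoE-/- replicate 2, 1 gene of that list was called lower.

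Tgfb1 is also among 9 genes that KLF3 represses or KLF6 activates, of which 3 rose. The other two were Lgals3, galectin 3, which KLF3 represses in mouse cells and which is a macrophage marker here (log2 change 3.46 ± 0.19, SE), and Mmp14, a membrane metalloproteinase (1.35 ± 0.16), with limma adjusted p = 1.11e-04 and 0.00369. These 3 stayed called without any single array. Over all genes 3.15% were called higher, but this list was chosen with earlier results of these data known. The part of the macrophage marker rise in these 3 calls was not tested. None of 12 co-repressors and co-activators of the family was called, Sin3b having the smallest p (0.25 ± 0.08, adjusted p = 0.157). Of 8 lymphocyte genes linked to KLF2 and KLF13 only the interleukin 7 receptor Il7r rose (2.81 ± 0.32, adjusted p = 0.00285), and 0 of 3 T cell markers tested was called (of 10 listed, 8 had a probe set). Among 10 further genes of the KLF and SP families none was called. Klf12 had the smallest p, with 495.8, 630.2 and 503 units in apoE-/- and 853.3, 603.9 and 746.2 units in wild type (log2 change -0.42 ± 0.16, adjusted p = 0.206). Its other kept probe sets also overlapped. They read 608.3, 617.8 and 496.8 units in apoE-/- against 506.5, 560.1 and 652.6 in wild type, and 277.2, 218.6 and 219.6 against 240.5, 294.9 and 272. Without apoE-/- replicate 2, 1 of the 10 further family genes was called lower.

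**Figure D4:**
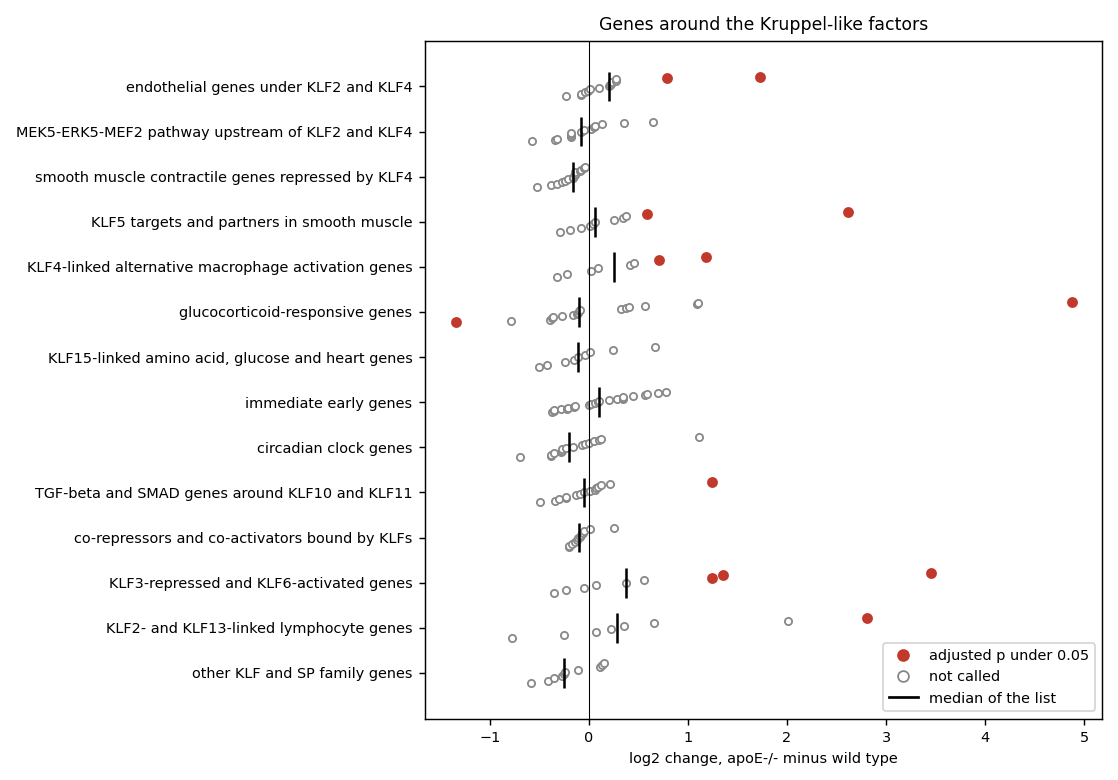
Log2 change (apoE-/- minus wild type, log2(intensity + 16) scale) of every tested gene in the 14 gene lists around the Kruppel-like factors, with called genes filled in red, other genes open and the list median as a vertical bar. All 15 contractile smooth muscle genes lie left of 0 with none called, and the called genes of the other lists are rises, except Zbtb16 at -1.34.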

How the data were processed

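Total RNA of mouse aorta was measured on 6 single-colour oligonucleotide arrays (3 apoE-/-, 3 wild type). The authors deposited 1 linear intensity per probe set and array; the software that made them is not given in the sources used here. The mean after trimming both tails was 499.884 to 499.894 units on all 6 arrays, so the deposited intensities had been scaled, and that scaling was kept. No detection calls were given. Gene names came from the platform annotation, which can be old, updated through GRCm38.p6 gene identifiers (34741 of 34945 probe sets with 1 symbol matched; 932 with several were not used, 9160 had no entry). The members and all gene lists were chosen with earlier results of these data known.

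Values were transformed to log2(intensity + 16), so changes of dim probe sets are understated. The 64 control probe sets and the lower 40% of the rest by mean log2 value (18015) were left out, leaving 27022 probe sets and 13031 genes, each read by its probe set of highest mean. limma 3.58.1 in R 4.3.3 (lmFit, eBayes with an intensity trend, genotype as the only term) gave changes, standard errors and adjusted p-values; the fit was tested on simulated data. A second fit used every kept probe set. Lists are described by counts and medians. Named genes were all members, Apoe, and per list up to 4 called genes by size or else the gene with the smallest p. Some further genes were named after their values were seen, as is said where they are given. Of the marker lists, genes are given only where they stand beside a result. With 3 arrays a group an exact permutation test (two-sided) reaches no less than 0.1 and was not run; the small number of arrays limits precision. Same-numbered arrays did not deviate together (r = -0.078 to -0.038 over probe sets), so replicate numbers were not taken as pairs. Alternatives were other log offsets, quantile normalization, median centring, other filters, a fit without the trend, weights per array, a gene read as its median probe set, the replicate number as a block and leaving out each array; calls within the lists without each array were added after seeing the data. Protein sequences were not used here.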

Additional observations from a re-analysis of the deposited data

How the results depend on the processing

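The count of 0 called Kruppel-like factors was the same under 13 of 16 alternatives. Klf15 was called lower, as the only member, with the lower 60% of probe sets left out (1 gene, adjusted p = 0.0478), with array weights (1 gene, adjusted p = 0.0485) and without wild type replicate 3 (1 gene and 1 probe set), so the lower count ranged from 0 to 1 over single arrays left out. With the replicate number as a block the log2 change of Klf15 was -0.77 (adjusted p = 0.0511) and 0 members were called. The sign of members near 0 depended on single choices. With the median of their probe sets the log2 change was 0.013 for Klf3 and 0.006 for Klf6. Without single arrays it ranged from -0.121 to 0.207 for Klf2 (negative without apoE-/- replicate 2 at -0.018 or wild type replicate 3), from -0.04 to 0.212 for Klf10 (negative without wild type replicate 1), from -0.266 to 0.067 for Klf5 (positive without apoE-/- replicate 1 at 0.057 or wild type replicate 3), from -0.215 to 0.014 for Klf6 (positive without apoE-/- replicate 1) and from -0.105 to 0.018 for Klf7 (positive without apoE-/- replicate 3). Klf4, Klf9, Klf13 and Klf15 kept their sign under all 16, Klf4 between 0.17 and 0.444 and Klf9 between -0.586 and -0.263. Over all genes, 145 to 545 were called higher and 10 to 156 lower without single arrays, against 410 and 63. The lower count was 41 with median centring, 31 without the trend, 121 with array weights and 18 with the replicate block. Klf5, the dimmest member, had the widest interval of any member gene (SE 0.23), but its other, dimmer kept probe set had an SE of 0.16.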

Other observations

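The genes whose log2 values across the 6 arrays were most like those of 4 members are given as a description, with Pearson's r over 6 arrays that share the genotype difference and the order of the beta-actin ratio; the most like of 13031 genes over 6 arrays is near 1 by selection. For Klf15 they were Lsm3 (r = 0.998), Garre1 (0.996), Abcf1 (0.995) and Ncoa2 (0.994), a co-activator of nuclear receptors. For Klf9 they were Chchd7 (0.997), Kctd6 (0.988), Megf9 (0.985) and again Garre1 (0.983). For Klf4 they were Pdlim4 (0.992), Slc30a7 (0.987), Uvrag (0.984) and Ubash3b (0.982), and for Klf2 they were Ccdc120 (0.989), Cltb (0.987), Nif3l1 (0.978) and Polr1b (0.972). None of these was called between the genotypes. For Garre1 the levels were 1241.1, 1215.5 and 1147 units in apoE-/- and 1397.7, 1440.8 and 1312.7 units in wild type, the order of arrays seen for Klf15.

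Of the family's genes outside the 10, 3 are given beside Klf12. Klf11, a TGF-beta-inducible relative of Klf10, read 535, 1080.3 and 484.4 units in apoE-/- and 968.6, 804.6 and 1240.5 units in wild type, with the groups overlapping (log2 change -0.58, limma adjusted p = 0.325). Klf17 read 178.2, 212.9 and 200.7 units in apoE-/- and 247.4, 269.9 and 251.5 units in wild type without overlap (log2 change -0.35, limma adjusted p = 0.267). The other Klf17 probe sets, at 4.1 to 10.4 and 16.3 to 32.1 units over the arrays, were under the filter. Klf16 read 513.8, 511.8 and 563.1 units in apoE-/- and 507.9, 509.8 and 436.6 units in wild type, without overlap in the other direction (log2 change 0.13, limma adjusted p = 0.628). Groups without overlap were seen in 24.6% of all genes. These 3 were named after their values were seen.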
